A study of Mus musculus with 5 samples.

Results

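Complex I subunit and assembly factor transcripts were compared between mouse pancreatic cancer cells with high and low autophagy flux. The genes were taken by name from the deposited expression table: symbols that begin with Nduf followed by a, b, c, s, v, ab or af and a number, without pseudogene symbols ending in -ps. This gave 46 genes of 52459 rows, namely 38 subunit genes and the 8 assembly factor genes Ndufaf1 to Ndufaf8. The samples were AThi (autophagy-high, 2 libraries) and ATlo (autophagy-low, 3 libraries) cells. All 5 came from the HY15549 mouse pancreatic cancer line with a C57BL/6 background, and all carried the GFP-LC3-RFP reporter, whose ratio of green to red fluorescence reads autophagy flux. The cells were grown in Matrigel as organoids in medium with 10% serum, made into single cells and sorted on that ratio, and mRNA libraries were sequenced. The labels name no drug, and the populations were defined by the sorted signal within 1 line. The series calls the libraries biological replicates without saying what was replicated, a culture or a sort, so p-values here reflect only how far these 5 libraries spread, which may be technical. The values imply a depth of 27600000 to 44900000 reads per library.

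Complex I, NADH:ubiquinone oxidoreductase, is the entry point for electrons from NADH into the respiratory chain of mitochondria. It is L-shaped: the matrix arm oxidises NADH and passes electrons over iron-sulfur clusters to ubiquinone, and the membrane arm pumps protons. A small set of core subunits, conserved from bacteria, does the chemistry. Part of that set is encoded in the nucleus (Ndufv and Ndufs genes) and part in mitochondrial DNA (mt-Nd genes). Accessory subunits surround the core, and assembly factors help to build the complex without staying in it.

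Nuclear genes of complex I were mostly lower in AThi than in ATlo cells, by small amounts. Of the 45 genes that could be tested, 27 fell, 2 rose and 16 did not pass, with falls between a ratio of AThi to ATlo of 0.876 (Ndufaf7) and 0.53 (Ndufa4). The test was limma on log2(FPKM + 0.5), fitted over all 11397 genes averaging 1 FPKM or more (fragments per kilobase of gene, scaled to library depth), with a Benjamini-Hochberg adjusted p under 0.05 as the threshold. The 27 falls were 60% of the tested genes of complex I, against 29.4% lower among all genes tested, and the 2 rises were 4.4%, against 22.2% higher. Either direction was called for 29 of the 45, against 51.6% of all genes tested. The median log2 difference was -0.25 over the 45 genes and -0.03 over all genes tested. A gene that did not pass is not thereby shown to be equal in both populations. Large falls were about as frequent as among all genes: 5 of the 27, or 11.1% of those tested, reached a fold of at least 1.5, against 11.0% of all genes tested.

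Library values of AThi lay wholly below those of ATlo in 34 of the 45 genes and wholly above them in 2, where 38.4% and 31.9% of all genes tested did so; that made 36 of the 45 without overlap, against 70.3%. Among the 37 tested subunit genes, 21 fell, 2 rose and 14 did not pass, and their median log2 difference was -0.25. Among the 8 assembly factor genes, 6 fell, 0 rose and 2 did not pass, and the median was -0.35. Whether subunits and assembly factors differed from each other was not tested. The summed FPKM of the subunit genes was 1729 and 1800 (1764 ± 50.2, SD, n = 2) in AThi and 2069, 2136 and 1993 (2066 ± 71.6, SD, n = 3) in ATlo, a ratio of 0.854. The summed FPKM of the assembly factor genes was 63.4 and 62.6 (63.0 ± 0.61, SD, n = 2) in AThi and 76.4, 80 and 78.6 (78.3 ± 1.84, SD, n = 3) in ATlo, a ratio of 0.804. In both sums each AThi library was below each ATlo library.

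**Figure D1:**
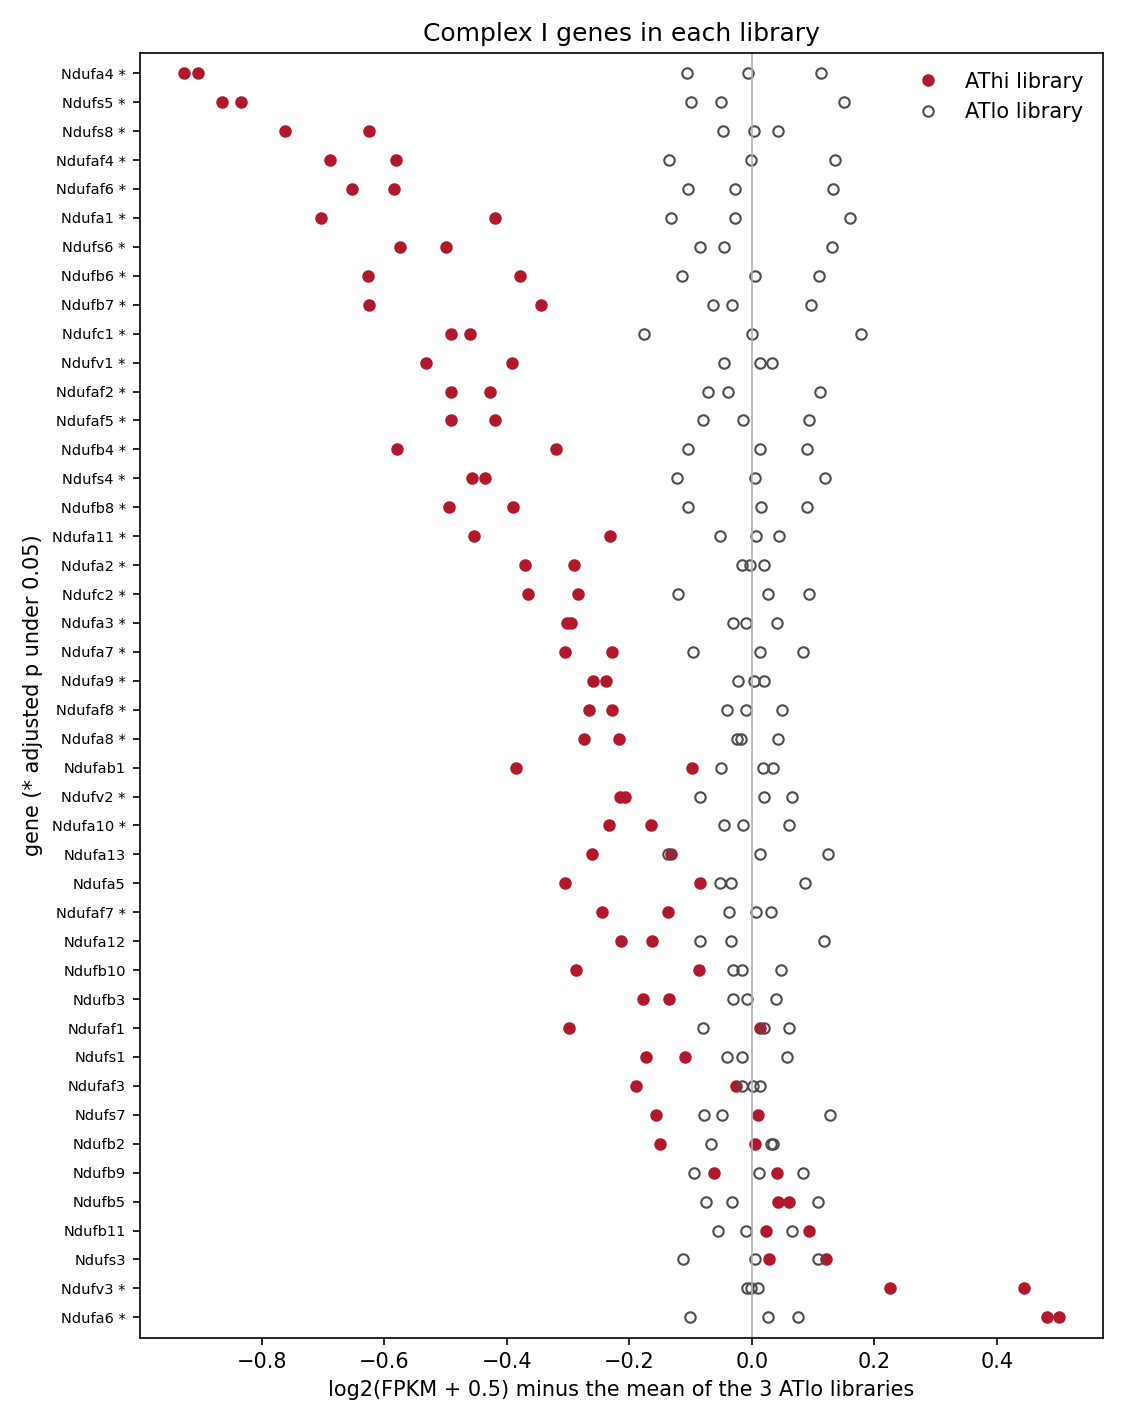
Each row is a tested complex I gene, sorted by its difference, and each point is 1 library: filled for the 2 AThi and open for the 3 ATlo libraries. The horizontal axis gives log2(FPKM + 0.5) minus the mean of the ATlo libraries, and stars mark adjusted p under 0.05. Both AThi points lie left of all ATlo points in 34 rows and right of them in the 2 lowest rows, Ndufv3 and Ndufa6.

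FPKM are relative within a library, so a level per cell cannot be read from them. Some measures moved with the same groups. Genes encoded in mitochondrial DNA held 10.0% and 7.51% of the summed FPKM in AThi, against 5.98%, 5.61% and 5.53% in ATlo. Where FPKM are scaled to all reads of a library, a larger share for them lowers the FPKM of every other gene. The FPKM formula used is not given, so whether it did so here is not known. With the values rescaled within nuclear genes, 16 subunit genes and 4 assembly factor genes were lower in AThi, and the same 2 subunit genes were higher. The falls of Ndufa7, Ndufa8, Ndufa10, Ndufaf7, Ndufaf8, Ndufc2 and Ndufv2 lost their calls there and under quantile normalization, where Ndufa9 lost its call too. Under that nuclear scaling 23.4% of all genes tested were lower and 28.3% higher, so the falls made up 45.3% of the calls over all genes, against 57.0% without it. All 10 immediate-early genes listed as signs of cell handling, Fos and Jun among them, were higher in AThi, with a summed FPKM of 3508 and 5480 in AThi against 1480, 1830 and 1102 in ATlo, and their part in the results on complex I was not tested. Of 6 epithelial markers, 1 was lower in AThi and 5 did not pass. Krt7 fell, at 71.2 and 83.5 FPKM in AThi and 125, 131 and 113 FPKM in ATlo (log2 difference -0.67, adjusted p 0.00151), and its part in the results on complex I was not tested. Krt8, Krt18 and Krt19 did not pass, with log2 differences of -0.30, 0.10 and -0.15, and Cdh1 was between 316 and 392 FPKM in the 5 libraries. Epcam was at 1.51 and 3.25 FPKM in AThi and at 1.70, 3.57 and 3.00 FPKM in ATlo. The fibroblast, endothelial and endocrine lists summed to at most 0.16 FPKM in any library. Of 6 immune markers, 5 were at or below 0.08 FPKM, and the macrophage and lysosomal gene Cd68 was at 8.68 and 14.7 FPKM in AThi against 4.38, 4.31 and 4.55 FPKM in ATlo. Of 5 acinar genes, 4 were at or below 0.38 FPKM, and Cela1 was at 11.1 and 10.2 FPKM in AThi against 12.9, 12.8 and 11.5 FPKM in ATlo. Fewer cells with a transcript and less transcript per cell cannot be told apart in these bulk libraries.

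Promoter sequences are shown here for members that moved and share a short word, GCGCATG, which is part of the site bound by NRF1, a known activator of respiratory chain genes. The bases from 120 to 41 before the start of transcription are printed on the gene's strand, with GCGCATG or its reverse complement in capitals. The sequences are from RefSeq, build GRCm38.p6. Ndufaf4 (chr4:24897963-24898042, plus strand), Ndufb6 (chr4:40279462-40279541, minus strand) and Ndufa11 (chr17:56717642-56717721, plus strand) fell, and Ndufa6 (chr15:82354332-82354411, minus strand) rose.
Ndufaf4: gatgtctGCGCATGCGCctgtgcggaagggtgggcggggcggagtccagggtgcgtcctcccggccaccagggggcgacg
Ndufb6: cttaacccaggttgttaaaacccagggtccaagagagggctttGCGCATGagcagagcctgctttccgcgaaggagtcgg
Ndufa11: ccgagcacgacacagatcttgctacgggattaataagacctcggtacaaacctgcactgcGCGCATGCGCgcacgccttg
Ndufa6: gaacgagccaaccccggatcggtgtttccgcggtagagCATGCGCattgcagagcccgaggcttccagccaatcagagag
In Ndufaf4 and Ndufa11 the word occurs on both strands, and the 2 matches overlap by 4 bases. The same word thus stands before genes that fell and before a gene that rose.

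Promoters of 300 bases (250 before the start, 50 after it) were found for 40 of the 46 genes. Each of 6 words was searched on both strands. GCGCATG was in 7 of the 40 (17.5%), against 3.9% of 32851 promoters in the table. These 7 were 6 of the 25 genes that fell, 1 of the 2 that rose and 0 of the 13 that did not pass. The word did not always lie well before the start. It began 7 bases before it in Ndufa8, and at bases 7 and 17 after it in Ndufb8 and Ndufaf5. GATGGCG, a word of sites for the factor YY1, was in 8 (20%), against 3.5%, and in 6 of the 8 it lay between bases 13 and 38 after the start on the sense strand, where its letters ATG can also be a start codon. CCGGAAG, the core of sites for ETS factors such as GABP, was in 6 (15%), against 8.9%. The E-box word CACGTG was in 2 (5.0%), against 7.2%, the CCAAT word in 14 (35%), against 37.4%, and GGGCGG, a word of sites for SP factors, in 21 (52.5%), against 35.7%. By call, GATGGCG was in 7 of the 25 genes that fell, 0 of the 2 that rose and 1 of the 13 that did not pass. In the same order, CCGGAAG was in 4, 0 and 2 genes and CACGTG in 2, 0 and 0. CCAAT was in 6, 2 and 6 genes, and GGGCGG in 12, 2 and 7. These splits were not tested. A match describes these letters only, and the table includes promoters of genes of every kind.

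The 7 core subunits encoded in the nucleus did not move as a block: 3 (42.9%) fell and 4 did not pass, where 29.4% of all genes tested were lower. Their median log2 difference was -0.14. Among the 3 that oxidise NADH, Ndufv1, which binds NADH and its flavin cofactor, was at 54.0 and 59.6 FPKM in AThi and at 79.0, 80.1 and 75.8 FPKM in ATlo. The libraries did not overlap, and the log2 difference was -0.46 ± 0.07 (SE; adjusted p 0.00171). Ndufv2, an iron-sulfur partner of Ndufv1, was at 45.1 and 45.4 FPKM in AThi and at 49.5, 54.9 and 53.2 FPKM in ATlo. Its AThi values also lay below all ATlo values, and the log2 difference of -0.21 ± 0.07 (SE) passed with an adjusted p of 0.0346. That call was lost without AThi replicate 1, AThi replicate 2, ATlo replicate 2 or ATlo replicate 3, with log2 differences of -0.21, -0.22, -0.18 and -0.20 and adjusted p-values of 0.112, 0.105, 0.135 and 0.0894. It was also lost under each of 4 rescalings, with adjusted p-values of 0.0665 to 0.323. Ndufs1, the largest subunit of the complex and a carrier of iron-sulfur clusters, was at 16.3 and 15.6 FPKM in AThi and at 17.2, 18.4 and 17.5 FPKM in ATlo. It did not pass, with a log2 difference of -0.14 ± 0.06 (SE; adjusted p 0.101), although its libraries did not overlap.

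The other 4 core subunits lead electrons to ubiquinone, and Ndufs8 alone among them passed. Ndufs8, which holds iron-sulfur clusters on the way to ubiquinone, was at 65.0 and 71.5 FPKM in AThi and at 114, 111 and 107 FPKM in ATlo. The AThi values were far below the lowest ATlo value, and the log2 difference was -0.69 ± 0.07 (SE; adjusted p 0.000355). Ndufs7, which carries the last cluster before ubiquinone, was at 26.5 and 29.8 FPKM in AThi and at 32.4, 28.6 and 28.0 FPKM in ATlo (adjusted p 0.508). Ndufs3, a scaffold of the same module, was at 12.5 and 11.6 FPKM in AThi and at 10.5, 12.3 and 11.5 FPKM in ATlo (adjusted p 0.479). In Ndufs7 and Ndufs3 the groups overlapped, and the log2 differences with their SE were -0.07 ± 0.09 and 0.07 ± 0.08. Ndufs8 lies on chromosome 19 (3908863 to 3912774, minus strand) and Ndufv1 near it (chromosome 19, 4007384 to 4012806, minus strand) in GRCm38.

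Both rises were in accessory subunits of the matrix arm. Ndufa6, a small LYR-motif protein that anchors an acyl carrier protein, was at 170 and 173 FPKM in AThi and at 128, 124 and 113 FPKM in ATlo. Each AThi library was above each ATlo library, and the log2 difference was 0.49 ± 0.08 (SE; adjusted p 0.00188). Ndufv3, which sits beside Ndufv1 and Ndufv2 at the tip of the arm, was at 45.0 and 52.4 FPKM in AThi and at 38.7, 38.4 and 38.2 FPKM in ATlo. The ATlo libraries were nearly equal and the AThi libraries apart from each other, with a log2 difference of 0.33 ± 0.08 (SE; adjusted p 0.0102). Without AThi replicate 2 it was 0.23, with an adjusted p of 0.0515, and the call was lost. Ndufa6 kept its call with each library left out and lies on chromosome 15 (82350140 to 82354322, minus strand); Ndufv3 lies on chromosome 17 (31520115 to 31531331, plus strand).

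Of the 9 accessory genes of the matrix arm, 5 (55.6%) fell, 2 (22.2%) rose and 2 did not pass, and the median log2 difference was -0.25. The shares over all genes tested were 29.4% lower and 22.2% higher. Ndufs6, a zinc-binding subunit, was at 20.8 and 19.7 FPKM in AThi and at 27.9, 32.5 and 28.7 FPKM in ATlo, a log2 difference of -0.54 ± 0.08 (SE). Ndufs4, whose loss in mice is a model of Leigh syndrome, was at 15.5 and 15.8 FPKM in AThi and at 19.7, 23.4 and 21.6 FPKM in ATlo, a log2 difference of -0.45 ± 0.08 (SE). In both genes the AThi libraries were close together and below every ATlo library. Ndufa2, with a thioredoxin-like fold and the highest level of the family in ATlo, was at 184 and 174 FPKM in AThi and at 229, 225 and 223 FPKM in ATlo, a log2 difference of -0.33 ± 0.07 (SE). Ndufa7 and Ndufa9 fell by 0.27 and 0.25 on the log2 scale. Those 2 calls did not hold in every fit: Ndufa7 missed the threshold without AThi replicate 1 (adjusted p 0.106), AThi replicate 2 (adjusted p 0.0523) or ATlo replicate 2 (adjusted p 0.0737), and Ndufa9 without ATlo replicate 2 (adjusted p 0.0539). Ndufa7 also missed it within nuclear genes (adjusted p 0.0608), under quantile normalization (adjusted p 0.0999) and with no filter on low values (adjusted p 0.0506), and Ndufa9 under quantile normalization (adjusted p 0.0655). Ndufa5 and Ndufa12 did not pass, with log2 differences of -0.20 and -0.19 and adjusted p-values of 0.0963 and 0.0790, and in both the libraries did not overlap.

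Of the 19 accessory genes of the membrane arm, 12 (63.2%) fell, 0 rose and 7 did not pass, and the median log2 difference was -0.30. The shares over all genes tested were 29.4% lower and 22.2% higher. Ndufs5, a cysteine-rich subunit on the side of the intermembrane space, was at 3.20 and 3.28 FPKM in AThi and at 6.01, 6.98 and 5.79 FPKM in ATlo. The AThi libraries were almost equal and below every ATlo library, with a ratio of 0.555 and a log2 difference of -0.85 ± 0.10 (SE; adjusted p 0.000522). The transcript has a near-identical copy, the pseudogene BC002163, which matches it at 99.3% over 78.3% of its length, so the value of Ndufs5 is uncertain. BC002163 itself was at 0.57 FPKM or less. Ndufs5 had the fewest reads of the tested genes of the complex, between about 76 and 218 per library by the implied depth.

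The other 11 falls of the membrane arm had log2 differences between -0.56 and -0.20. Ndufa1, an X-linked subunit needed for assembly, was at 47.4 and 57.9 FPKM in AThi and at 76.0, 86.7 and 70.7 FPKM in ATlo, a log2 difference of -0.56 ± 0.12 (SE). Ndufb6, Ndufb7, Ndufc1, Ndufb8, Ndufb4 and Ndufa11 had log2 differences of -0.50, -0.48, -0.48, -0.44, -0.45 and -0.34. Ndufc2, Ndufa3, Ndufa8 and Ndufa10, the last of them related to nucleoside kinases, had log2 differences of -0.32, -0.30, -0.25 and -0.20. Some of these calls rested on single libraries. Without AThi replicate 1, Ndufa11 missed the threshold at -0.23 (adjusted p 0.0667) and Ndufa8 at -0.22 (adjusted p 0.0655), and without ATlo replicate 2 Ndufa8 missed it at -0.22 (adjusted p 0.0678). Without AThi replicate 2, Ndufb4 was at -0.32 (adjusted p 0.0692) and Ndufc2 at -0.28 (adjusted p 0.0792). Ndufa10 lost its call with any of the 5 libraries left out, with adjusted p-values of 0.0517 to 0.148.

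The 7 membrane-arm genes that did not pass were Ndufb2, Ndufb3, Ndufb5, Ndufb9, Ndufb10, Ndufb11 and Ndufa13 (GRIM-19). Ndufb9, a LYR-motif protein like Ndufa6, was at 130.0 and 140 FPKM in AThi and at 137, 144 and 127 FPKM in ATlo. Its log2 difference was -0.01 ± 0.08 (SE), and the groups overlapped. Ndufb9 shares 19.5% of its exon bases with another gene model on its strand, and Ndufb11, Ndufs3 and Ndufa12 have near-identical pseudogenes, so these values are uncertain. Ndufb11 and Ndufb5 had log2 differences of 0.06 ± 0.07 and 0.05 ± 0.07 (SE), and the groups overlapped in both. Ndufb3, the gene nearest to the threshold among those that missed it, was at 43.7 and 42.4 FPKM in AThi and at 47.7, 49.3 and 47.0 FPKM in ATlo (adjusted p 0.0616). Ndufa13 passed without ATlo replicate 3 (adjusted p 0.0481), and Ndufb10 without AThi replicate 2 (adjusted p 0.0329), as did Ndufa5 of the matrix arm (adjusted p 0.0409). By letter, 4 of 10 Ndufb genes fell, against 9 of 13 Ndufa, 4 of 8 Ndufs, both Ndufc and 2 of 3 Ndufv genes. Of all genes tested, 29.4% were lower, and these shares were not tested against each other.

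**Figure D2:**
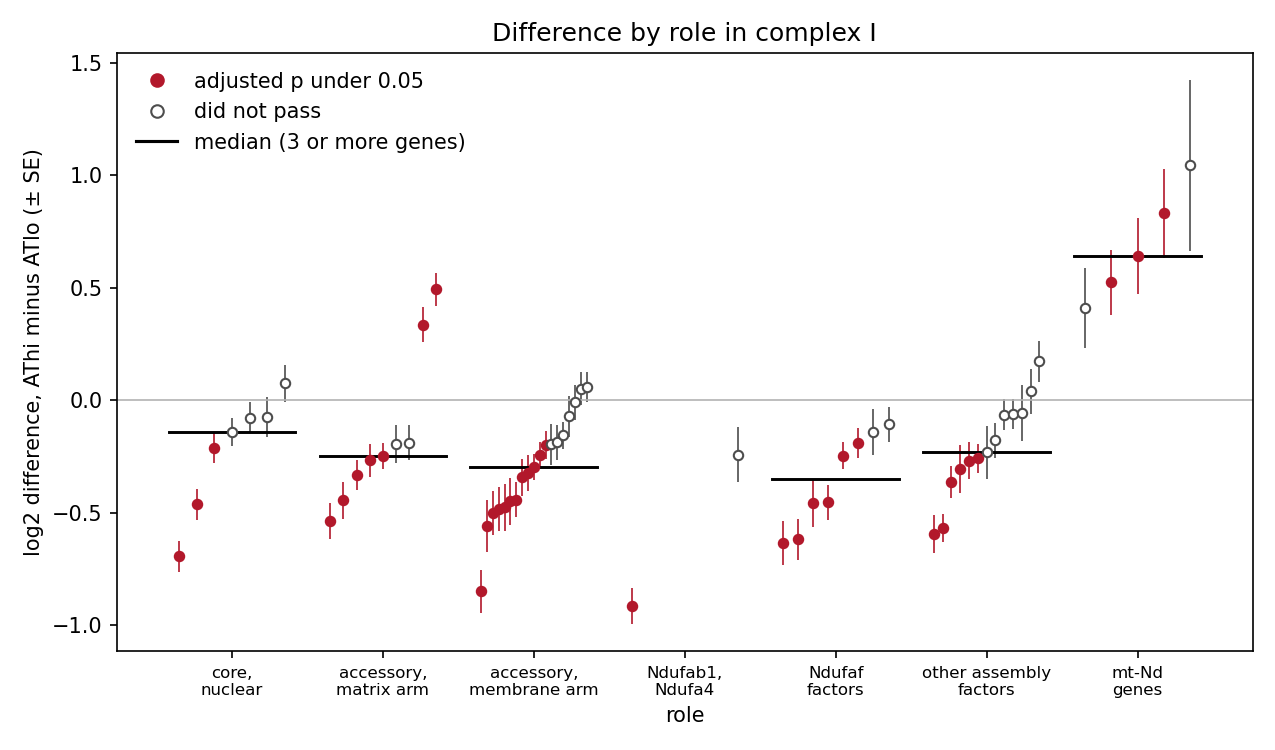
Points give the log2 difference (AThi minus ATlo) with its SE for each tested gene, placed by role in complex I, filled where the adjusted p was under 0.05, and lines give the median of each group of 3 or more genes. The medians are -0.14 for the core, -0.25 and -0.30 for the accessory genes of the matrix and membrane arms, -0.35 for the Ndufaf genes, -0.23 for the other assembly factors and 0.64 for the mt-Nd genes.

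Ndufa4 carries a complex I name, and its protein is now known as a subunit of complex IV, cytochrome c oxidase. It had the largest fall of the family. Ndufa4 was at 66.6 and 65.5 FPKM in AThi and at 124, 135 and 116 FPKM in ATlo. Both AThi libraries were far below every ATlo library, with a ratio of 0.53 and a log2 difference of -0.92 ± 0.08 (SE; adjusted p 0.000207). Without Ndufa4 and its relative Ndufa4l2, 20 of 36 tested subunit genes fell, 2 rose and 14 did not pass, and the median was -0.24. Ndufa4l2, known as a target of hypoxia-inducible factor, was listed at 0 in all 5 libraries, where 3 reads would give 0.061 to 0.099 FPKM at the implied depths, and it was the single member that was not tested. Ndufab1, the mitochondrial acyl carrier protein found in both arms, was at 1.46 and 1.89 FPKM in AThi and at 1.97, 2.12 and 2.09 FPKM in ATlo (adjusted p 0.138). It has 2 near-identical pseudogenes and is uncertain for that reason. Ndufa4 lies on chromosome 6 (11900292 to 11907497, minus strand).

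Of the 8 assembly factor genes, 6 (75%) were lower in AThi, against 29.4% of all genes tested. The other 2, Ndufaf1 and Ndufaf3, did not pass. Ndufaf4, which acts with Ndufaf3 on the ubiquinone module, was at 3.94 and 3.62 FPKM in AThi and at 5.55, 6.14 and 6.80 FPKM in ATlo. Its groups did not overlap, with a log2 difference of -0.64 ± 0.10 (SE; adjusted p 0.00198). Its partner Ndufaf3 did not pass: it was at 4.67 and 5.29 FPKM in AThi and at 5.40, 5.45 and 5.33 FPKM in ATlo (adjusted p 0.287). Ndufaf6, needed for the early membrane module that holds mt-Nd1, was at 3.82 and 4.03 FPKM in AThi and at 5.82, 6.94 and 6.16 FPKM in ATlo. Both AThi libraries were below every ATlo library, with a log2 difference of -0.62 ± 0.09 (SE; adjusted p 0.00158).

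Ndufaf5, Ndufaf7 and Ndufaf8 are linked to chemical modification of core subunits. Ndufaf5, which hydroxylates an arginine of Ndufs7, was at 7.26 and 6.88 FPKM in AThi and at 9.32, 10.6 and 9.77 FPKM in ATlo, a log2 difference of -0.46 ± 0.08 (SE; adjusted p 0.00274). Ndufaf8, which stabilises Ndufaf5, was at 18.7 and 19.2 FPKM in AThi and at 23.3, 22.4 and 21.9 FPKM in ATlo, a log2 difference of -0.25 ± 0.06 (SE; adjusted p 0.0131). Ndufaf8 missed the threshold without AThi replicate 1, at -0.23 (adjusted p 0.0631), within nuclear genes, at -0.16 (adjusted p 0.0504), and under quantile normalization, at -0.14 (adjusted p 0.103). Ndufaf7, a methyltransferase, was at 11.7 and 12.6 FPKM in AThi and at 13.5, 14.0 and 14.2 FPKM in ATlo. It passed narrowly, with a log2 difference of -0.19 ± 0.07 (SE; adjusted p 0.0443), and lost the call with any of the 5 libraries left out, at adjusted p-values of 0.0503 to 0.204.

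Ndufaf2, an assembly paralogue of the subunit Ndufa12 that makes way for it late in assembly, was at 1.86 and 1.76 FPKM in AThi and at 2.59, 2.93 and 2.52 FPKM in ATlo. The groups did not overlap, with a log2 difference of -0.46 ± 0.10 (SE; adjusted p 0.00920), which was -0.43 with an adjusted p of 0.0531 without AThi replicate 2. An annotated noncoding RNA on the other strand covers 65.6% of the exon bases of Ndufaf2, as Smim27 covers 39.0% of those of Ndufb6 and Tssk6 30.0% of those of Ndufa13. The strand setting of the counts is not given, so these values are uncertain. Ndufaf1, a member of the complex that builds the proximal membrane arm, was at 11.6 and 9.23 FPKM in AThi and at 10.8, 11.6 and 12.0 FPKM in ATlo. Its AThi libraries lay on both sides of the lowest ATlo library (adjusted p 0.279), and it passed without AThi replicate 1, at -0.30 (adjusted p 0.0460). Among 13 tested assembly factor genes without an Nduf name, 6 (46.2%) fell, 0 rose and 7 did not pass, and the median was -0.23. Of all genes tested, 29.4% were lower and 22.2% higher, and the shares were not tested against each other. Tmem126a, a factor of the membrane arm, was at 9.21 and 7.74 FPKM in AThi and at 12.8, 12.8 and 13.4 FPKM in ATlo, and Aifm1, which aids the import of subunits, was at 13.6 and 12.6 FPKM in AThi and at 19.9, 20.03 and 19.1 FPKM in ATlo. Their log2 differences were -0.59 ± 0.08 and -0.57 ± 0.06 (SE), and no library of either group overlapped. Acad9 and Tmem126b, which work in the same complex as Ndufaf1, had log2 differences of -0.06 and 0.04 and did not pass. Of other factors of that complex, Ecsit and Timmdc1 fell, with log2 differences of -0.27 and -0.26. Tmem186, at -0.06, did not pass.

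The mitochondrially encoded core subunits went the other way. Of 5 tested mt-Nd genes, 3 rose and 0 fell, the other 2 did not pass, and the median log2 difference was 0.64. The summed FPKM of the mt-Nd genes was 11456 and 8128 (9792 ± 2350, SD, n = 2) in AThi and 7050, 6395 and 6644 (6696 ± 331, SD, n = 3) in ATlo. AThi replicate 1 was far above AThi replicate 2, which was itself above all ATlo libraries. The ratio of AThi to ATlo was 1.46 for this sum and 1.5 for the sum of all genes encoded in mitochondrial DNA. The higher values were therefore not confined to complex I genes of that DNA. Over all genes tested, nuclear ones included, 22.2% were called higher in AThi. mt-Nd3 and mt-Nd4l were listed at 0 in all libraries, and mitochondrial genes have near-identical nuclear copies, so the mt-Nd values are uncertain.

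**Figure D3:**
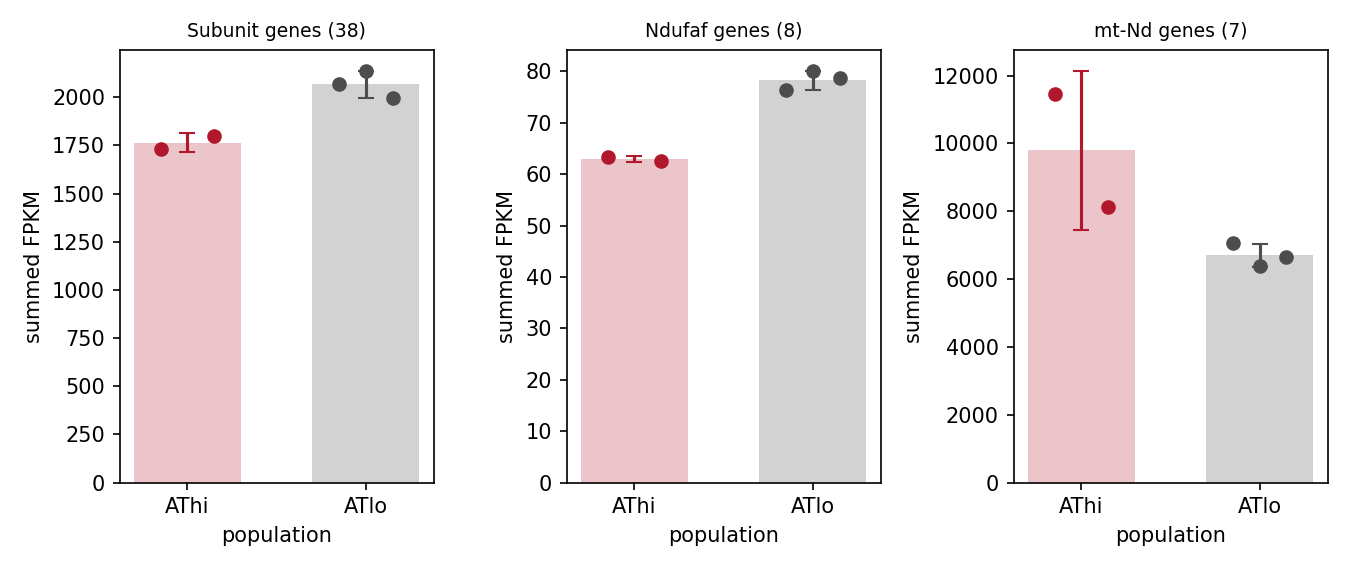
Points give the summed FPKM of each library for the subunit genes, the Ndufaf genes and the mt-Nd genes, AThi left and ATlo right, with bars at the group mean and error bars of 1 SD (n = 2 and 3). The AThi means are lower for subunits (1764 against 2066) and Ndufaf genes (63.0 against 78.3) and higher for mt-Nd genes (9792 against 6696).

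Other nuclear genes of the respiratory chain were counted in the same fit, where 29.4% of all genes tested were lower and 22.2% higher; their shares were not tested against those of complex I. Of 34 tested genes of complexes III and IV and the ATP synthase, 23 (67.6%) fell, 3 rose and 8 did not pass, and the median was -0.36. Of the 4 genes of complex II, 2 fell and 2 did not pass. Among 12 tested regulators of mitochondrial genes, 5 fell, 0 rose and 7 did not pass. Nrf1, whose sites were searched above, was at 2.58 and 2.68 FPKM in AThi and at 3.42, 3.94 and 3.93 FPKM in ATlo. Its log2 difference was -0.44 ± 0.09 (SE), with no overlap of the libraries. Sites for YY1 and GABP were searched too. Yy1 and Gabpa did not pass, with log2 differences of 0.15 and -0.18, and Gabpb1 fell, at -0.27. Whether any of these factors acts on complex I genes here was not tested. Pprc1, a coactivator related to PGC-1, was at 11.8 and 11.0 FPKM in AThi and at 18.3, 17.9 and 18.0 FPKM in ATlo, and Ppargc1a, the gene of PGC-1 alpha, was below 0.5 FPKM in every library.

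Levels of the 45 tested genes ran from 1.68 FPKM (Ndufab1) to 179 FPKM (Ndufa2) in AThi means. For the same 2 genes they were 2.06 and 225 FPKM in ATlo means, the lowest and highest there too. Subunit proteins are present in near-equal numbers in the complex, and assembly factors do not stay in it. FPKM divide by the merged exon length of a gene, which ran from 419 bases (Ndufa1) to 8086 bases (Ndufs1) in GENCODE M21. Across the 45 tested genes the level (midpoint of the AThi and ATlo means) and this length had a Spearman rho of -0.42, and the log2 difference and the length a rho of 0.24, as a description, since the genes share the libraries. The 45 include the 8 assembly factors, whose median was 5.96 and 6.08 FPKM in the AThi libraries, against 41.5 and 42.4 FPKM for subunits. Ndufab1 and Ndufb2, with 6883 and 5628 bases and levels of 1.68 and 3.21 FPKM in AThi against 2.06 and 3.40 FPKM in ATlo, were among the longest models and the lowest levels. Other genes departed from this: Ndufs5, with 860 bases, was at 3.24 FPKM in AThi, and Ndufs1, the longest, at 16.0 FPKM.

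**Figure D4:**
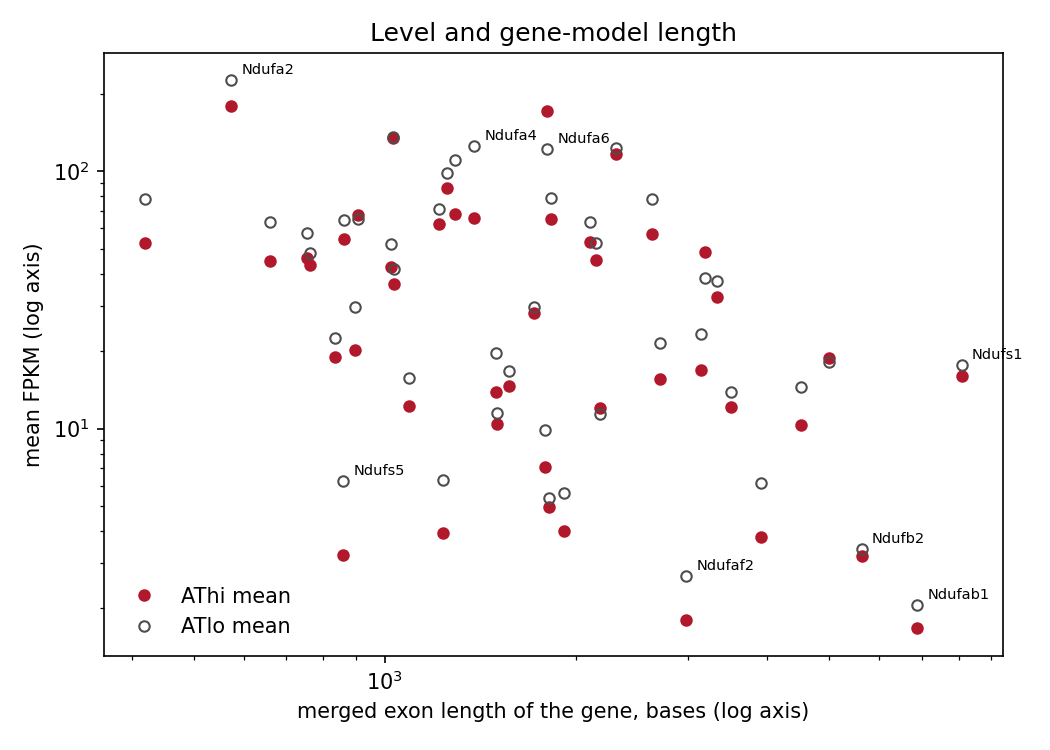
Points give the mean FPKM of each tested complex I gene in AThi (filled) and ATlo (open) against the merged exon length of its gene model, both on log axes. Levels tend to fall with length (Spearman rho -0.42 over 45 genes, 8 of them assembly factors). Ndufab1 and Ndufb2 lie at the lower right and Ndufa2, at 572 bases, at the upper left.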

How the data were processed

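The 5 mRNA libraries were given as FPKM in 1 table deposited by the authors, with 2 decimals. Per the submitters' processing notes, bcl2fastq, STAR, featureCounts and DESeq2 were used with the builds mm10 and GRCm38. The kit was TruSeq Stranded mRNA, per the labels. The sources used here give no versions, strand setting, rule for multi-mapping reads or FPKM formula. Low values of short genes (up to 200 bases, 1 exon), multiplied by GENCODE M21 exon length, fell on whole multiples of a step (100.0% within 0.1 of a step), which implies 27600000 and 44900000 reads in AThi and 42100000, 36000000 and 39100000 reads in ATlo. Floors of 3 reads cover counting error only.

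Group was the single term in limma 3.58.1 (R 4.3.3; eBayes with trend; 3 residual and 3.89 prior degrees of freedom) on log2(FPKM + 0.5), two-sided, for genes averaging 1 FPKM or more. Differences are AThi minus ATlo on that scale, which understates changes of low genes. The fit was tested on simulated data. Copies were sought with BLAST 2.17.0 (at least 95% identity over 50% of the transcript). All 46 symbols matched 1 GENCODE gene. The members, gene lists, roles and searched words were chosen with earlier results of these data known. Values in every library are given for the core subunits (apart from 1 gene not reported here), the Ndufaf genes, the 5 largest falls, the 2 rises, untested genes and genes at the threshold; other genes named were chosen after their values were seen. Alternatives covered pseudocount, filter, scaling, moderation, threshold, each library and a replicate block.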

Additional observations from a re-analysis of the deposited data

How the results depend on the processing

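Over 17 alternatives, all 29 calls in complex I genes kept their direction, and 17 of the 29 also kept their call in every alternative that tested them. The alternatives of filter, moderation and threshold leave each log2 difference as it was, so they could not change a direction and bear on calls only. The number of subunit genes lower in AThi was 21, and it ran from 14 (adjusted p under 0.01) to 21. For assembly factors it was 6 and ran from 4 to 6. With each library left out in turn, where a lone AThi library is assumed to vary like the ATlo libraries, the subunit falls ran from 16 to 20, the assembly factor falls from 4 to 5 and the subunit rises from 1 to 2, and 13 of 21 subunit falls, 3 of 6 assembly factor falls and 1 of 2 rises were called each time. At adjusted p under 0.01, 1 subunit gene was higher. The median log2 difference of subunits was -0.25, and -0.21 when rescaled to TPM, -0.17 within nuclear genes, -0.21 with median-ratio scaling and -0.15 with quantile normalization; without single libraries it ran from -0.29 to -0.22. The scalings shift all genes, by construction, and 21 of the 29 calls held under all 4. Under quantile normalization, falls were 48.5% of the calls over all genes. Among genes averaging 5 FPKM or more, 41 of the 45 genes were tested, and the assembly factor median was -0.25, against -0.35 with all 8.

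AThi and ATlo replicates 1 and 2 share a number and a code prefix in their titles, whose meaning no label gives. Deviations from the group means correlated at 0.2 and 0.297 for the same numbers. The deviations of 2 AThi libraries mirror each other by construction, so these values cannot decide whether the numbers mark pairs. The main fit used no pairs. With a replicate block, 21 subunit and 5 assembly factor genes were lower and 2 subunit genes higher. The calls of Ndufaf7 and Ndufv2 were lost and that of Ndufa13 was gained. ATlo replicate 3 has no AThi library of its number, so in that fit it adds nothing to the differences. They equal those without ATlo replicate 3 (Ndufa13 -0.27 and Ndufs8 -0.72 in both), so the block is not a separate check on all 5 libraries. Depth was not varied.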
